A study of Rattus norvegicus with 6 samples.

Results

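The miR-30 family was followed in small RNA from extracellular vesicles of rat bone marrow mesenchymal stromal cells (BMSCs), stromal cells of the marrow with the capacity to become bone. Its members were taken by name from the deposited table of raw counts, as every 5p strand of miR-30 with a letter from a to e, and rows repeated over precursors were merged. This gave 5 members (rno-miR-30a-5p, rno-miR-30b-5p, rno-miR-30c-5p, rno-miR-30d-5p and rno-miR-30e-5p, the prefix standing for rat) of 311 distinct mature sequences. The study held BMSC cultures at 1% oxygen (hypoxia) or 21% oxygen (normoxia), both with 5% carbon dioxide, and made 3 vesicle libraries of each. All cells came from leg bone marrow of male SD rats aged 4 weeks and shared one medium with 10% fetal bovine serum at 37 degrees. No label says whether the libraries of a group are separate animals or separate cultures, so p-values rest on a spread that may be only technical.

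A miRNA is a short RNA that guides the silencing machinery to messenger RNAs, mostly through its seed, the bases 2 to 8 from its 5′ end. The miR-30 family is known in mouse osteoblast precursors as a brake on bone formation driven by bone morphogenetic protein (BMP): it represses Smad1, which carries the BMP signal to the nucleus, and Runx2, the transcription factor that commits cells to the osteoblast lineage. Each precursor hairpin yields a 5p and a 3p strand, and the 5p strand is the one that carries the family seed.

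The mature sequences are shown because the members share one seed and differ only behind it. They are printed 5′ to 3′ from the deposited table, with the seed in capitals.
miR-30a-5p: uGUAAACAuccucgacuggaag
miR-30d-5p: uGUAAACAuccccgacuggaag
miR-30e-5p: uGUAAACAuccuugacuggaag
miR-30c-5p: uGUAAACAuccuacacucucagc
miR-30b-5p: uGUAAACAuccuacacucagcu

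A pair of subgroups can be read from these lines. Counting from 1 at the 5′ end, miR-30a-5p and miR-30d-5p differ by U12C alone, and miR-30a-5p and miR-30e-5p by C13U alone, with the base of miR-30a-5p given first. miR-30b-5p and miR-30c-5p share their first 18 bases. A difference of 1 base means that reads may have been divided unevenly among miR-30a-5p, miR-30d-5p and miR-30e-5p, so the values of these single members are uncertain. The seed GUAAACA occurred at bases 2 to 8 in 5 of the 311 sequences (1.61%), which are the 5 members, and at no other position of any listed sequence.

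Of the 5 mature members, 3 matched the RefSeq miRNA table (build GRCr8) by name, each with the same sequence. In that build miR-30a-5p lies at chr9:33233946-33233967 on the plus strand and miR-30e-5p at chr5:139637504-139637525 on the minus strand. miR-30c-5p has a copy in each of these regions, at chr9:33253695-33253717 on the plus strand (gene Mir30c2) and at chr5:139634505-139634527 on the minus strand (gene Mir30c1), and its counts cannot be divided between them. In the RefSeq gene table, Mir30c1 and Mir30e are nearest neighbours inside the span of Nfyc, a protein-coding gene. Mir30b and Mir30d are nearest neighbours inside a long noncoding RNA gene on chromosome 7, and Mir30a and Mir30c2 are nearest neighbours on chromosome 9.

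Total counts ran from 106954 to 248542 per library and did not separate the groups. The libraries listed 85 to 183 sequences, and 56 sequences had a count in all 6. All 9 mesenchymal markers on the list used, led by miR-21-5p, were listed in at least 4 libraries, and their sum held 28.6 to 43.7% of the counts of a library. Hypoxia replicate 1 stood apart. It listed the fewest sequences, had the lowest mean correlation with the other libraries (0.657, against 0.679 to 0.753) and held 18226 counts of miR-320-3p, against at most 5255 elsewhere. Results that rest on this library are given with and without it. miR-210-3p, the miRNA best known for induction by low oxygen, was listed with 0, 21 and 44 counts at low oxygen and 0, 0 and 85 at normal oxygen, so it gives no check of the oxygen labels. miR-106b-5p, named in the series title, was listed in normoxia replicate 1 alone, with 21 counts.

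The family was a minor part of the vesicle miRNAs in every library. Its summed counts made up 0.458, 0.447 and 0.649% of all counts in hypoxia replicates 1 to 3 and 0.471, 0.388 and 0.339% in normoxia replicates 1 to 3. The highest value was in hypoxia replicate 3 (95% exact binomial interval 0.617 to 0.681%) and the lowest in normoxia replicate 3 (0.316 to 0.364%). These intervals reflect counting error alone and take each count as a separate molecule. Amplified reads that repeat one molecule would make them too narrow. Hypoxia averaged 0.518 ± 0.113% and normoxia 0.400 ± 0.0667% (SD, n = 3 each). The groups overlapped, because normoxia replicate 1 lay above 2 of the 3 hypoxia libraries. Fewer vesicles that carry a miRNA and less of it per vesicle cannot be told apart in such bulk libraries. Ordered by summed counts per seed, the GUAAACA family ranked between 11 and 18 among 261 seeds, depending on the library.

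The sum varied less than its parts. In CPM, counts put on one common library size with TMM factors that adjust for the makeup of each library, the family sum had a coefficient of variation of 23.5% over the 6 libraries. This ranked 5 from the lowest among the 43 seed families listed in all libraries, whose median was 37.3%, and 2 among the 14 of them within 2-fold of its mean level, whose median was 31.0%. The 3 members listed in all libraries were ordinary in this respect. They had 42.2% for miR-30d-5p, 42.2% for miR-30a-5p and 31.5% for miR-30c-5p, beside a median of 38.1% over the 56 sequences listed everywhere. The scarcer miR-30b-5p and miR-30e-5p, not listed in every library, had 127% and 193%. The family value sums 5 sequences, whereas the 311 sequences carried 261 distinct seeds, so most seeds belonged to a lone sequence. Summing members that do not rise and fall together can lower a coefficient of variation by itself. The number of sequences per seed was not matched, so the low rank does not show that the miR-30 total was unusually steady.

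**Figure D1:**
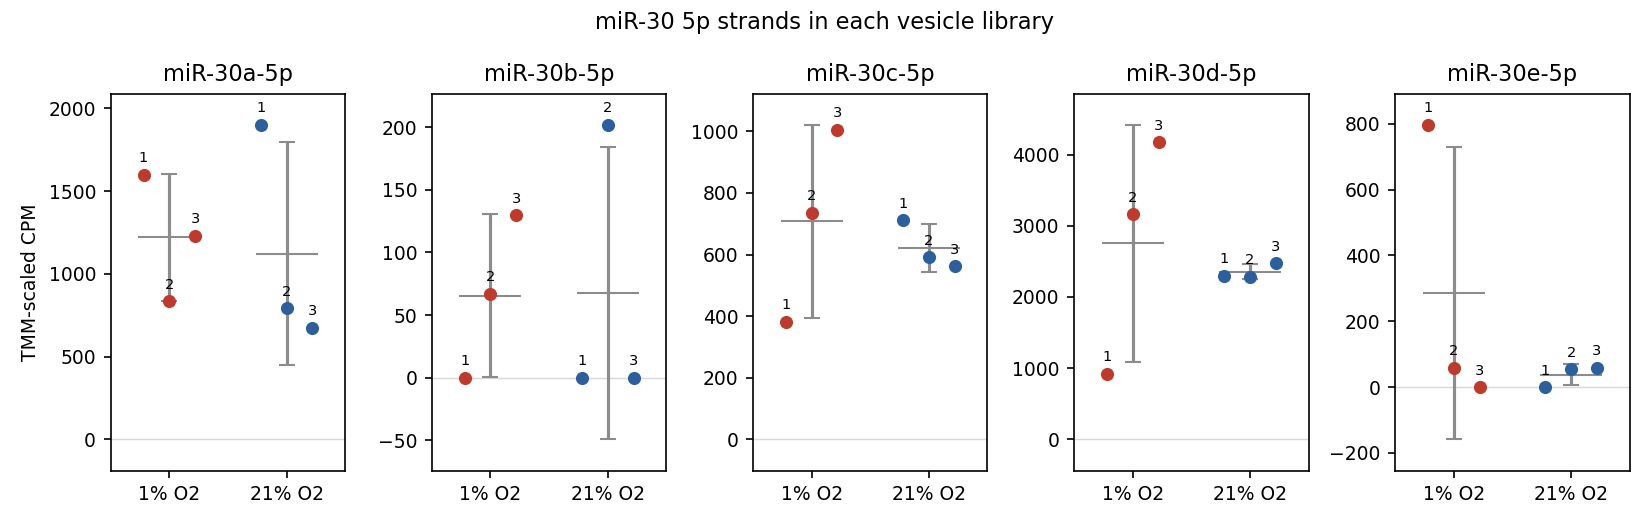
TMM-scaled CPM of each miR-30 5p strand (vertical axes, one scale per panel) at 1% oxygen (red) and 21% oxygen (blue). Points are libraries with their replicate number, and grey lines give the mean and SD of 3 libraries. The groups overlap in all 5 panels, and hypoxia replicate 1 is the lowest point for miR-30c-5p and miR-30d-5p and the highest for miR-30e-5p.

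miR-30d-5p was the most abundant member in 5 of 6 libraries. It had 135, 425 and 1029 counts in hypoxia replicates 1 to 3 and 236, 464 and 506 in normoxia replicates 1 to 3. As levels these were 919, 3160 and 4173 CPM under hypoxia and 2299, 2285 and 2475 CPM under normoxia. The 3 normoxia libraries lay close together, while the hypoxia libraries lay on both sides of them, 1 below and 2 above. Hypoxia averaged 2751 ± 1665 CPM and normoxia 2353 ± 106 CPM (SD, n = 3 each).

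miR-30a-5p was the second member in 5 libraries and the first in hypoxia replicate 1. Hypoxia libraries held 235, 112 and 303 counts of it, normoxia libraries 195, 161 and 138. In CPM it reached 1599, 833 and 1229 under hypoxia and 1900, 793 and 675 under normoxia. The highest values were those of replicate 1 in each group, which are also the 2 libraries with the smallest totals, and the groups overlapped throughout.

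miR-30c-5p, the member with 2 genes, was the third in 5 libraries. Its counts were 56, 99 and 248 at low oxygen and 73, 120 and 115 at normal oxygen, or 381, 736 and 1006 CPM against 711, 591 and 563 CPM. Hypoxia replicate 1 was the lowest of all and hypoxia replicate 3 the highest. In every library miR-30c-5p had fewer counts than miR-30a-5p, but in hypoxia replicate 2 (99 against 112) and normoxia replicate 3 (115 against 138) the pair lay close.

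miR-30e-5p was scarce except in one library. Hypoxia replicates 1 to 3 listed 117, 8 and 0 counts of it and normoxia replicates 1 to 3 listed 0, 11 and 12, so that 93.6% of its hypoxia counts came from hypoxia replicate 1. That library listed it at 796 CPM, and the other 5 at 0 to 59.5 CPM. A miRNA with no listed count may still be present, because no library lists a count below 2 (7 in normoxia replicate 2).

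miR-30b-5p was listed in 3 libraries, with 0, 9 and 32 counts at low oxygen and 0, 41 and 0 at normal oxygen. The strand of its neighbouring gene Mir30d was far more abundant. Where both were listed, miR-30d-5p had 47.2, 32.2 and 11.3 times the counts of miR-30b-5p (hypoxia replicates 2 and 3 and normoxia replicate 2). miR-30c-5p, summed over its 2 genes, had 12.4, 10.9 and 9.58 times the counts of miR-30e-5p in hypoxia replicate 2, normoxia replicate 2 and normoxia replicate 3, but 0.479 times in hypoxia replicate 1. Ratios between miRNAs also hold differences in how well each sequence is ligated and amplified, which were not measured here.

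Makeup of the family, the share of its summed counts held by each member, does not depend on the scaling between libraries. miR-30d-5p held 65.1 and 63.8% in hypoxia replicates 2 and 3 and 46.8, 58.2 and 65.6% in normoxia replicates 1 to 3. In hypoxia replicate 1 it held 24.9% (95% exact binomial interval 21.3 to 28.7%), while miR-30a-5p held 43.3% (39.1 to 47.6%) and miR-30e-5p 21.5% (18.2 to 25.2%). The miR-30e-5p share was at most 1.56% in the other libraries. For miR-30d-5p hypoxia averaged 51.3 ± 22.9% and normoxia 56.9 ± 9.47% (SD, n = 3 each), with overlapping groups. Without hypoxia replicate 1 the difference between the group means changed sign, from -5.63 to 7.57 percentage points.

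miR-30c-5p kept the most even share of the family. It held 14.5 to 15.4% in 5 libraries and 10.3% in hypoxia replicate 1. The ratio of miR-30d-5p to miR-30c-5p ran from 2.41 to 4.40, a range of 1.83-fold over the 6 libraries. The ratio of miR-30d-5p to miR-30a-5p spanned 6.61-fold. It was 3.79, 3.40, 2.88 and 3.67 in replicates 2 and 3 of each group, 1.21 in normoxia replicate 1 and 0.574 in hypoxia replicate 1. The ratio of miR-30a-5p to miR-30c-5p was 4.20 in hypoxia replicate 1 and 2.67 in normoxia replicate 1, and 1.13 to 1.34 in the other 4.

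**Figure D2:**
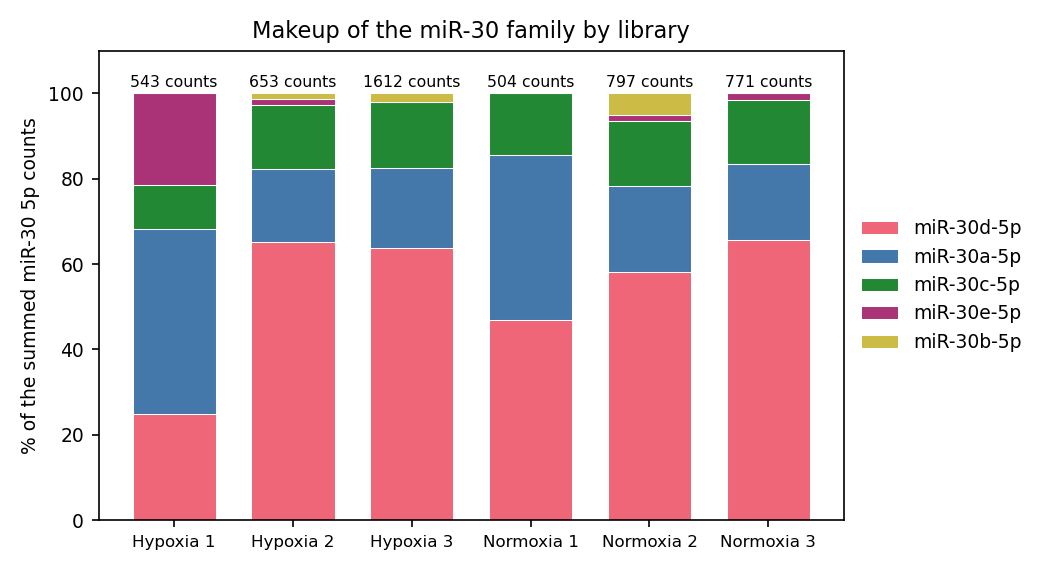
Share of the summed miR-30 5p counts (vertical axis, percent) held by each member in each library, with the summed count above each bar. miR-30d-5p fills most of the bar in 4 libraries, miR-30a-5p takes 38.7% in normoxia replicate 1 and 43.3% in hypoxia replicate 1, and a miR-30e-5p block of 21.5% appears in hypoxia replicate 1.

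The summed share of striated muscle markers was highest in hypoxia replicate 1. Of 6 striated muscle markers 3 were listed, led by miR-1b, and their sum held 0.147 to 1.89% of the counts of a hypoxia library and 0.324 to 0.487% of a normoxia library. The value of 1.89% was that of hypoxia replicate 1, with 1970 counts of miR-1b and 275 of miR-206-3p. miR-1-3p had 3 counts there and 19 in hypoxia replicate 2, while miR-133a-3p, miR-133b-3p and miR-208a-3p were not listed in any library. Normoxia replicate 1, where miR-30a-5p held 38.7% of the family, had the lowest normoxia value, 0.324%. Blood cell markers, of which 4 of 8 were listed, held no counts in hypoxia replicate 1, and 0.0253 to 0.103% in the other libraries. Liver markers, all 3 listed, held 0.548 to 0.787% under hypoxia and 0.504 to 0.949% under normoxia. Endothelial markers, 1 of 2 listed, held 0.0267 to 0.0793% and 0.0423 to 0.0964%, and epithelial markers, 1 of 6 listed, held 0 to 0.00411% and 0 to 0.0112%. The part of these sources in the miR-30 counts was not tested.

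The hairpins of miR-30a and miR-30e are shown because both of their strands were listed. They are the RefSeq sequences of GRCr8, Mir30a at chr9:33233941-33234011 on the plus strand and Mir30e at chr5:139637450-139637541 on the minus strand, with the 5p strand (first) and the 3p strand (second) in capitals.
Mir30a: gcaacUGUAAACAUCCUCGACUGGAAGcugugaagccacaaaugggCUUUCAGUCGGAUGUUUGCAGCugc
Mir30e: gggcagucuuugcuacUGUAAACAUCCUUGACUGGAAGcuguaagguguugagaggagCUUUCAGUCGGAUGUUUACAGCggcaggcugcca

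The 3p strands were nearly absent from the table. Both carry the seed UUUCAGU in place of GUAAACA. miR-30a-3p was listed in normoxia replicate 1 alone, with 11 counts beside 195 of the 5p strand, or 5.34% of the pair (95% exact binomial interval 2.70 to 9.35%). miR-30e-3p was listed in normoxia replicate 3 alone, with 14 counts beside 12 of the 5p strand, or 53.8% of the pair (33.4 to 73.4%). In hypoxia replicate 1, with 117 counts of miR-30e-5p, the 3p strand was not listed. No other 3p strand of the family was listed, and neither of these passed the filter on low counts.

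The main comparison asked whether any of these miRNAs differed between vesicles of cells kept at low and at normal oxygen. In edgeR's quasi-likelihood test none of the 4 tested members reached a Benjamini-Hochberg adjusted p under 0.05, against 0% of all 107 tested sequences. Without adjustment, 0 members had a p under 0.05 in edgeR, against 0.935% of all tested. Among all tested sequences DESeq2 gave 1 and limma-voom 4 at an unadjusted p under 0.05, and both gave 0 at the adjusted threshold. miR-30e-5p was removed by the filter on low counts. Without that filter, its log2 fold change over the 6 libraries was 2.87 (SE 2.61), with an adjusted p of 0.497 in edgeR over 311 sequences. No member had groups that did not overlap, against 7.48% of all tested sequences.

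miR-30d-5p had a log2 fold change, hypoxia over normoxia, of 0.23 (SE 0.55), with a 95% interval of -0.96 to 1.41, which on the linear scale is 0.515-fold to 2.65-fold. For miR-30a-5p it was 0.12 (SE 0.65, interval -1.27 to 1.52), and for miR-30c-5p 0.19 (SE 1.00, interval -1.97 to 2.35). The scarce miR-30b-5p had -0.04 (SE 2.48, interval -5.40 to 5.31). The adjusted p in edgeR was 0.998 for each. Fitted values lay above 0 for 3 members and below 0 for 1, while 41.1% of all tested sequences lay above 0. The median was 0.15 over the 4 members and -0.14 over all 107, and the latter was -0.02 with upper-quartile factors. The values of miR-30a-5p, miR-30c-5p and miR-30d-5p stayed above 0 with RLE factors, upper-quartile factors and library totals. A level of miR-30d-5p 2-fold higher under hypoxia lies within its interval and is not excluded by these data.

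Leaving out hypoxia replicate 1 gave higher fitted values for miR-30b-5p, miR-30c-5p and miR-30d-5p, none of which passed the test. In that fit miR-30d-5p had a log2 fold change of 0.85 (SE 0.36, interval 0.05 to 1.65), with an unadjusted p of 0.0394 and an adjusted p of 0.974 in edgeR over 130 sequences, so it did not pass. At an unadjusted p under 0.05, 1.54% of these sequences were higher. For miR-30c-5p the value was 0.70 (SE 0.58), for miR-30a-5p 0.09 (SE 0.61) and for miR-30e-5p -0.09 (SE 2.84). miR-30e-5p also passed the filter without hypoxia replicate 2, with 3.46 (SE 2.68, adjusted p 0.995 in edgeR), and without normoxia replicate 1, with 2.50 (interval -3.44 to 8.45, adjusted p 0.998 in edgeR). Of its 4 fits, the one without hypoxia replicate 1 alone gave a value below 0. The median of all tested sequences also moved, to 0.15. The 2 remaining hypoxia libraries lay above all 3 normoxia libraries for miR-30c-5p and miR-30d-5p, that is for 2 of 5 members, against 9.23% of the 130 sequences. Leaving out normoxia replicate 1 instead gave miR-30a-5p 0.84 and miR-30d-5p 0.26, and without normoxia replicate 3 miR-30a-5p had -0.041. Without hypoxia replicate 3, miR-30d-5p had -0.040 and miR-30c-5p 0.0032. Without hypoxia replicate 2, miR-30a-5p had 0.45 and miR-30b-5p 0.12, and without hypoxia replicate 1 miR-30b-5p had 0.76.

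**Figure D3:**
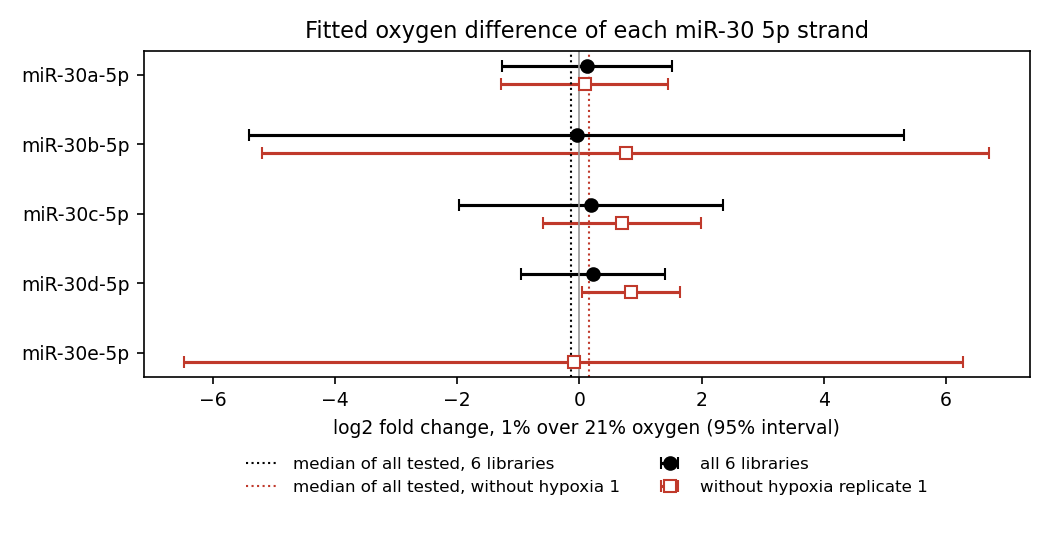
Log2 fold change (horizontal axis, 1% over 21% oxygen) of each miR-30 5p strand with its 95% interval, with all 6 libraries (black circles) and without hypoxia replicate 1 (red squares). Dotted lines mark the medians of all tested sequences, -0.14 and 0.15. All intervals with 6 libraries include 0, and the miR-30d-5p square lies at 0.85.

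Precision followed abundance. The SE of the log2 fold change was 0.55 for miR-30d-5p and 2.48 for miR-30b-5p, beside a median of 1.44 over all 107 sequences. For the 39 sequences whose mean exceeded 1000 CPM the median SE was 0.42.

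**Figure D4:**
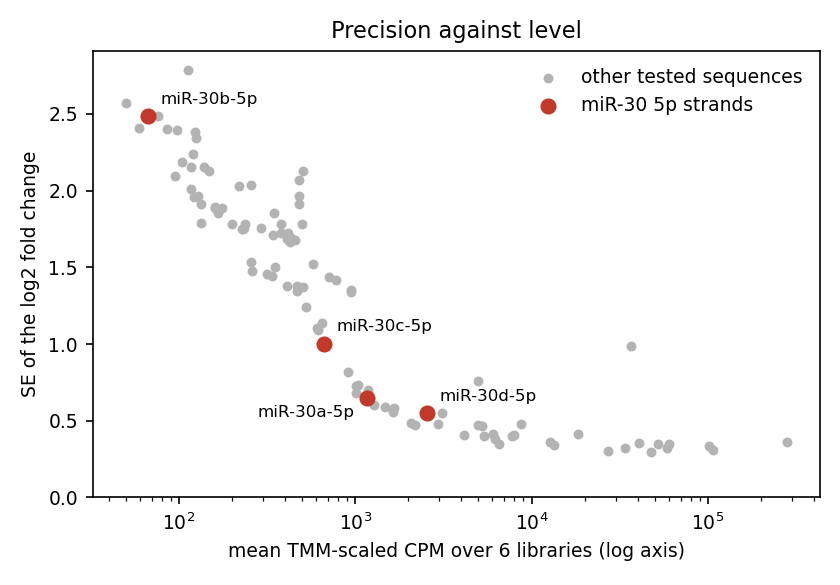
SE of the log2 fold change (vertical axis) against the mean TMM-scaled CPM over 6 libraries (horizontal log axis) for the 107 tested sequences. The 4 tested miR-30 strands (red) run from miR-30b-5p, with an SE of 2.48, to miR-30d-5p, with 0.55.

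Other miRNAs known to repress Runx2 were few. Of 11 on the list used, 4 were listed and 3 tested, and none passed the test. All 3 had fitted values below 0, with a median of -0.44 beside -0.14 over all tested. miR-218a-5p, which also acts on Wnt inhibitors, had 138, 72 and 274 counts in the hypoxia libraries and 108, 319 and 181 in the normoxia libraries, and its fitted log2 value was -0.44 (SE 0.68). miR-23a-3p had 0, 97 and 115 against 64, 145 and 39 counts, with -0.36 (SE 1.68). miR-34c-5p, a p53-induced miRNA, had 0, 29 and 201 against 37, 114 and 125 counts, with -0.57 (SE 1.69). Both were unlisted in hypoxia replicate 1, and without it their values were 0.47 and 0.19. In that fit miR-218a-5p had -0.30 and the list median was 0.19, beside 0.15 over all tested. In summed counts the list held 0.116 to 0.245% of a hypoxia library and 0.152 to 0.281% of a normoxia library, while the miR-30 members held 0.339 to 0.649%. In each of the 6 libraries the miR-30 sum was the larger.

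Of 19 other miRNAs known to act on BMP ligands, receptors or Smads, 17 were listed and 11 tested. None passed, 3 had values above 0 and 8 below, and the median was -0.16. Of all 107 tested sequences 41.1% lay above 0, with a median of -0.14. Without hypoxia replicate 1, 56.2% of all 130 tested sequences lay above 0, with a median of 0.15. Of the 11 list members, 9 lay above 0 in that fit and 2 below, with a median of 0.23, and none passed. Of those known to target Smad1, the target shared with miR-30, miR-26a-5p was far more abundant than the family, with 3641, 8370 and 11946 counts in the hypoxia libraries and 5744, 12427 and 12218 in the normoxia libraries. The log2 fold change of miR-26a-5p was -0.39 (SE 0.35), while miR-26b-5p had 0.19 (SE 1.72) and miR-199a-5p -0.05 (SE 0.70). Of those that target other Smads, miR-21-5p (Smad7, an inhibitor of the pathway) had -0.16 (SE 0.36), miR-146a-5p (Smad4, the shared partner) -0.02 (SE 0.73) and miR-224-5p (Smad4) -0.39 (SE 0.47). Among those that target receptors, miR-100-5p (Bmpr2) had -0.24 (SE 0.32) and miR-125b-5p (Bmpr1b) -0.19 (SE 0.40). Among those that target ligands, miR-140-5p (Bmp2) had 1.01 (SE 1.44), miR-98-5p (Bmp2) -2.90 (SE 1.97) and miR-22-3p (Bmp7) 0.78 (SE 0.55). These targets are known in part from human and mouse cells. Without hypoxia replicate 1 the sign changed for miR-26a-5p (0.14), miR-199a-5p (0.61), miR-21-5p (0.32), miR-146a-5p (0.57), miR-224-5p (0.23) and miR-100-5p (0.16). In that fit miR-26b-5p had 0.97, miR-140-5p 1.43, miR-22-3p 0.13, miR-125b-5p -0.02 and miR-98-5p -2.02. miR-20a-5p (Bmpr2), removed by the filter with 6 libraries, was tested there and had 3.69. Its counts were 0, 14 and 80 in the hypoxia libraries and 6, 0 and 0 in the normoxia libraries. With it the list median was 0.28 over 12 members.

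The miRNAs whose level was most like the family sum over the 6 libraries were sought among the 51 other annotated sequences listed everywhere. By Pearson's r of log2(CPM + 1), which shares the library and its scaling factor between both axes, they were miR-199a-3p (r = 0.71, Spearman's rho 0.086), miR-27b-3p (r = 0.58, rho 0.77), miR-10a-5p (r = 0.55, rho 0.54), miR-140-5p (r = 0.51, rho 0.26) and miR-100-5p (r = 0.50, rho 0.54). Without the 2 libraries farthest from the median of the family sum, hypoxia replicates 1 and 3, r was -0.61 for miR-199a-3p, -0.06 for miR-27b-3p, 0.97 for miR-10a-5p, -0.36 for miR-140-5p and 0.32 for miR-100-5p. Those libraries had the lowest and the highest family sum in CPM, so leaving them out narrows its range, which can lower r by itself. The lowest place depends on the scaling. By share of all counts hypoxia replicate 1, at 0.458%, lay above normoxia replicate 3, at 0.339%. The correlations describe 6 libraries and carry no test.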

How the data were processed

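Small RNA of vesicles was sequenced in 6 libraries. The submitters' processing notes name Novoalign 3.02.12, cutadapt 1.9.3 and, as the build, rn6, without saying what each did. How tags were counted, against which miRNA release and with what filters is not stated there or in the labels. The authors deposited raw tag counts per mature miRNA and, in a second table, normalized values, treated as a score because the method of scaling is not stated. Blank cells were taken as 0.

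The 353 rows were reduced to 311 distinct sequences, 197 annotated. The test was edgeR's (version 4.0.16, under R 4.3.3). After filterByExpr, with a minimum count of 10 and a minimum total of 15, 107 sequences remained, fitted with TMM factors (0.904 to 1.25), robust glmQLFit, glmQLFTest and Benjamini-Hochberg adjustment at 0.05. CPM used the totals of the tested sequences times these factors. SE is the absolute log2 fold change over the square root of F. The fit was also run on counts simulated from the kind of model it assumes, which cannot show that this model holds for these data. Alternatives used other factors and filters, DESeq2 1.42.0, limma 3.58.1, the replicate number as a block, and each library left out.

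Named miRNAs were all miR-30 strands, tested members of the Runx2 and BMP lists, the 5 most like the family sum, miR-210-3p and miR-106b-5p. miR-320-3p, miR-20a-5p and the single markers were named after their values were seen. Members and lists were chosen with earlier results of these data known. The Runx2 and BMP lists leave out miR-30 itself.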

Additional observations from a re-analysis of the deposited data

How the results depend on the processing

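The count of 0 called miRNAs held in 18 of 19 alternatives. When limma was run on the table the authors had normalized, with 1 as the pseudocount, it was 1, an unannotated sequence that is no miR-30 strand. It was 0 with each library left out in turn. No alternative gave an adjusted p below 0.89 for miR-30a-5p and miR-30b-5p, 0.93 for miR-30c-5p or 0.92 for miR-30d-5p. miR-30e-5p, which was tested in 4 alternatives only, had its lowest adjusted p without a filter, at 0.497 (log2 fold change 2.87), and values of -0.094 to 3.46 with a library left out. In every alternative the Runx2 and BMP lists had 0 called members. One alternative, merging rows by name in place of sequence, was chosen after seeing the data and changed no value. Of the fitted values, miR-30c-5p kept its sign in all 19 alternatives. miR-30a-5p was -0.041 to 0.84 with each library left out, miR-30c-5p 0.0032 to 0.70 and miR-30d-5p -0.040 to 0.85. For miR-30b-5p the values ran from -0.57 to 0.76, but only over the libraries whose removal left it in the test. The low-count filter removed miR-30b-5p without hypoxia replicate 3 and without normoxia replicate 2. A mean count of at least 50 removed it as well. miR-30b-5p was above 0 in limma-voom (1.30), in limma on the authors' values with a pseudocount of 1 (1.21) or 10 (0.33) and with annotated miRNAs only (0.12). With the replicate number as a block, miR-30d-5p had -0.011 and miR-30b-5p 1.63, and no call changed. The labels do not say that the numbers pair the libraries. The deviations of same-numbered libraries correlated at 0.192, 0.0033 and 0.187, and those of differently numbered libraries at -0.27 to 0.127. The cause of the changes among the alternatives was not tested. The median of all tested sequences ran from -0.23 to 0.15 over the alternatives. The BMP list median was 0.0010 with a mean count of at least 50. Over the members tested in each fit, it ran from -0.25 to 0.28 with each library left out, and the Runx2 list median from -0.53 to 0.19. The Runx2 list median was -1.82 in limma-voom, -1.92 and -0.89 on the authors' values with a pseudocount of 1 and 10, and -0.95 with the block, against -0.44. The hypoxia minus normoxia difference in the summed miR-30 share ran from 0.0530 to 0.154 percentage points, and that in the miR-30d-5p share of the family from -12.5 to 7.57, with each library left out. Leaving out 1 library leaves 2 in its group. Low counts limit miR-30b-5p, miR-30e-5p and both 3p strands most, at 11 to 148 counts in total.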
